A study of Mus musculus with 2 samples.

Results

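The genes described here are 10 markers of the intestinal crypt base, Ascl2, Ephb2, Ephb3, Myc, Cd44, Smoc2, Slc12a2, Rgmb, Prom1 and Olfm4, in single cells of mouse intestinal adenoma organoids. They were taken by symbol from the 27514 Ensembl genes that the 2 deposited gene tables share, and all 10 were found. The question was which of them follow Lgr5, the R-spondin receptor that marks crypt base stem cells, from cell to cell within each culture, and whether the answer holds in resting and in cycling cells. Of the 10, 9 were measured, meaning that they reached at least 5 unique molecular identifiers (UMIs, 1 per captured RNA molecule) per 1000000 (CPM) in either group compared, and Olfm4 was not.

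The organoids came from adenomas of ApcMin/+ mice on the C57BL/6 strain, aged 17 weeks, so both cultures carry the Apc mutation, which activates Wnt signalling inside the cell. The control culture received no R-spondin fusion protein. The treated culture received RSPO1-Fc, R-spondin 1 joined to an antibody Fc part, at 10 ug/ml by the treatment protocol, whereas the description of that sample gives the same figure in mg/ml. Each condition is 1 library, called the control and the treated library here, made with the 10x Chromium 3′ method, and the labels do not say how many mice or adenomas stand behind it. With 1 library per condition there is no replicate check, no test between conditions is possible, and the intervals below are 95% intervals for counting error only.

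Crypt base columnar stem cells sit between Paneth cells at the bottom of the crypt and divide under Wnt signals, which R-spondins strengthen by protecting Wnt receptors from degradation. The genes studied here are textbook products of that compartment: several are direct Wnt targets, and in normal crypts they are found together with Lgr5 or in a gradient that falls towards the lumen. In an adenoma, loss of Apc switches on Wnt target genes without the outside signal.

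The starts of 3 of the genes are shown. Rgmb was higher with Lgr5 in control cells, and Ascl2 followed the cell cycle state. Ephb3 was the only member, of those whose windows were searched, with the E-box letters. The sequences are the bases before the annotated start, 5′ to 3′ on the gene's strand, from RefSeq on GRCm38.p6. Of Rgmb the window before the outermost RefSeq start is shown, and that of Ephb3 ends where the GENCODE gene begins. Gene positions given below are from GENCODE on GRCm38. Capitals mark the E-box letters CAGCTG, a motif read by basic helix-loop-helix factors, the class of ASCL2.
Ascl2 chr7:142969265-142969514, minus strand: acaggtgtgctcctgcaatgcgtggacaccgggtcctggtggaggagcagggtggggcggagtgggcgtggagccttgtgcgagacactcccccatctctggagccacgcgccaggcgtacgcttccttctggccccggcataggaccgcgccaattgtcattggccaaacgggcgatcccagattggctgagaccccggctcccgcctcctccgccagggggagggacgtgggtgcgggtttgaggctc
Rgmb chr17:15831247-15831496, minus strand: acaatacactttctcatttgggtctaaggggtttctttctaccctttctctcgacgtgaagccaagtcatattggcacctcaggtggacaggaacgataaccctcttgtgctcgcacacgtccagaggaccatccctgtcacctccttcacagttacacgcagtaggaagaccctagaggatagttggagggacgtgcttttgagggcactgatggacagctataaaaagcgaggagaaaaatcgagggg
Ephb3 chr16:21204545-21204754, plus strand: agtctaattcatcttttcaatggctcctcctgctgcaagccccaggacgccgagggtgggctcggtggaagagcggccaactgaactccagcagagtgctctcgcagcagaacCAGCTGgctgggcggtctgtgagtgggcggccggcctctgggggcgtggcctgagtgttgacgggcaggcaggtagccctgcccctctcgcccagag
The RefSeq table held 10 windows of 250 bases for 7 of the 10 members. The core letters of the TCF site, CTTTGA or the reverse TCAAAG, were in the windows of 0 of these 7 members, against 4544 of all 32851 windows (13.8%). The letters CAGCTG, which read the same on both strands, were in the window of 1 member, Ephb3, 137 bases before its RefSeq start, against 4271 of all windows (13%). These counts describe the letters in the windows and nothing else.

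Total depth was 91675581 UMIs for the control and 89437327 for the treated library. A minimum of UMIs set for each library left 2269 and 2767 barcodes, where the labels name a target of 5000 cells per sample. Of these, 1881 and 2751 had at least 5 UMIs of Epcam, an adhesion protein of epithelium, and are the epithelial cells studied; the shallowest held 9819 and 5967 UMIs. No cell barcode was shared between the libraries. The epithelial cells held a median of 27736 UMIs in the control and 23548 in the treated library, with Epcam at 2122 and 1565 CPM and Krt8, a keratin of simple epithelium, at 1989 and 2689 CPM. The libraries also differed in genes of sex and of position along the gut. Xist, expressed from the inactive X chromosome of females, had 100820 control UMIs and 3 treated UMIs, while Eif2s3y on the Y chromosome had 0 and 3980. Hoxb13, a gene of the hindmost gut, had 6997 and 0, and Gata4, a gene of the proximal gut, had 1 and 3090. Mouse, sex and gut segment of origin therefore cannot be told apart from RSPO1-Fc, and the results below compare cells within a library first.

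To keep the detection of Lgr5 from following the depth of a cell, each cell was thinned at random to 5000 UMIs, and a cell with at least 1 Lgr5 UMI after thinning is called Lgr5-detected. In the control library 500 of 1881 cells (26.6%, 24.6 to 28.6) were Lgr5-detected, against 54.2% before thinning. With RSPO1-Fc, the number was 189 of 2751 (6.87%, 5.95 to 7.88), against 22.0% before thinning. The median depth of Lgr5-detected and other cells was 27379.5 and 27906 UMIs without RSPO1-Fc, and 20488 and 23712.5 UMIs with it. If free RNA made up 10% of a cell's UMIs, it alone would give shares of 1.80% and 0.472%, and of 187 control cells with macrophage markers, with a median of 14614 UMIs, 1 (0.535%) had an Lgr5 UMI. Levels of the other genes are UMIs summed over the cells of a group at full depth, in CPM, and the level of Lgr5 itself in these groups is fixed by how the cells were chosen. Levels are compared between cells for 1 gene, not between genes.

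Smoc2 was the member that was higher in Lgr5-detected cells of both libraries, and Rgmb was higher in those of the control. At a 1.5-fold threshold, 2 of 9 measured members were higher in control Lgr5-detected cells, against 2.63% of all genes, and 1 of 9 in treated Lgr5-detected cells, against 2.86%. None of the 9 was 1.5-fold lower in either library, where 2.86% and 3.34% of all genes were. These shares of all genes also stand beside the counts from gene lists compared by Lgr5 detection below. The median log2 ratio of the members was 0.37 in the control and 0.18 in the treated library, beside 0.01 and 0.00 for all genes. Slc12a2, Ephb3, Ephb2 and Ascl2 were above 1 in both libraries but under the threshold, Prom1 and Myc took opposite sides of 1, and Cd44 was lower in both. Some of these sides and calls changed with the definition of Lgr5-detected cells or of the level. Ascl2 in the control was at 0.963 with at least 1 unthinned Lgr5 UMI as the definition, and Ephb3 in the treated library at 0.991 as a mean over cells. With thinning to 3000 UMIs, treated Myc was at 0.929, on the side of the control. Control Slc12a2 then passed the threshold at 1.509, which made 3 members. It was at 1.085 with at least 1 unthinned Lgr5 UMI as the definition, and at 1.33 with at least 2. The difference of these ratios between the libraries was not tested.

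**Figure D1:**
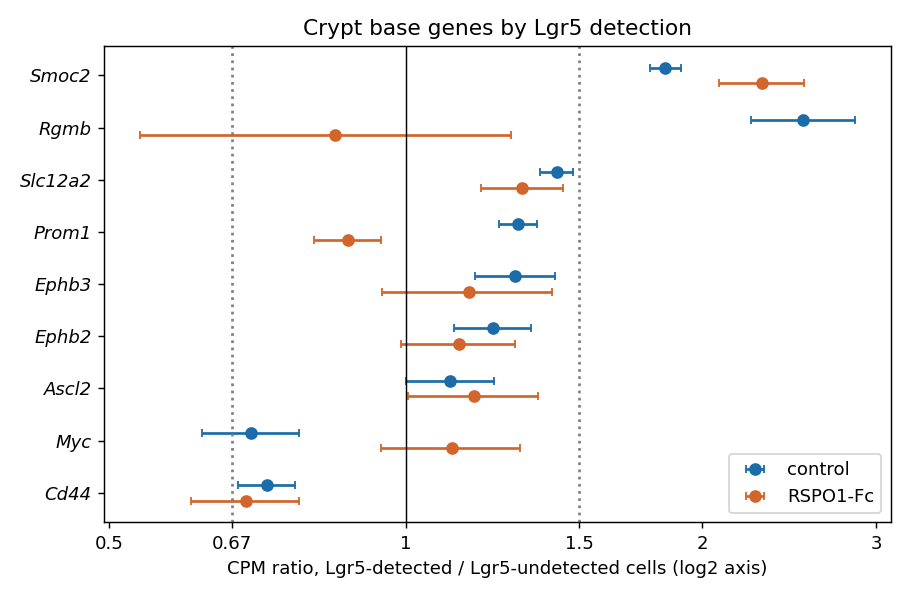
CPM ratio of each member between Lgr5-detected and Lgr5-undetected epithelial cells (log2 axis) in the control (blue) and RSPO1-Fc treated (orange) library. Points are ratios, bars are 95% counting intervals, and dotted lines mark 1.5-fold either way; Smoc2 lies at 1.83 and 2.30, Rgmb at 2.53 and 0.848.

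Smoc2 encodes a secreted calcium-binding matrix protein that modulates BMP signals and belongs to the published Lgr5 stem cell signature (chr17:14279506-14404790). Its level was 269 CPM in Lgr5-detected and 147 CPM in other control cells, and 105 and 45.8 CPM in the treated library. The ratios were 1.83 (1.77 to 1.90) and 2.30 (2.08 to 2.54). The direction was the same in both libraries although Smoc2 differed several-fold in level between them. Counted by cells after thinning, 61.0% of Lgr5-detected and 40.8% of other control cells had a Smoc2 UMI, and 30.7% and 18.4% in the treated library. Choosing cells the other way round uses the same counts and is not a separate check. Lgr5 in cells with a Smoc2 UMI was 2.29 (control) and 1.94 (treated) times its level in cells without one. Among 187 macrophage-marker cells 1.07% had a Smoc2 UMI, against 46.1% of epithelial control cells (82.8% before thinning).

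Rgmb encodes a membrane-anchored co-receptor for BMPs that also binds neogenin (chr17:15803188-15831039). In the control it was at 29.0 CPM in Lgr5-detected and 11.5 CPM in other cells, a ratio of 2.53 (2.24 to 2.86). In treated cells, it was at 5.55 and 6.55 CPM, a ratio of 0.848 (0.538 to 1.28) that rests on 24 UMIs in the Lgr5-detected cells. The control interval lies wholly above 1 and the treated interval spans it. A Rgmb UMI was found in 11.4% of Lgr5-detected and 5.43% of other control cells, and in 3.17% and 3.40% in the treated library; before thinning 32.0% of all control and 15.1% of all treated epithelial cells had one. Control macrophage-marker cells also held Rgmb, at 15.5 CPM and in 7.49% of cells, close to the 7.02% of epithelial cells, so they give no background for this gene. All 25 markers of macrophages, fibroblasts, endothelium and pericytes had UMIs in the control epithelial cells, at 0.105 to 20.7 CPM each, and summed to 254 CPM in Lgr5-detected and 235 CPM in other cells. For the treated cells, 20 of the 25 had UMIs, C1qb, C1qc, Tyrobp, Kdr and Cspg4 were at 0, and the sums were 21.5 and 24.6 CPM. Without cells that held 3 or more such UMIs per 5000, the control ratio of Rgmb was 2.57.

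The partners of RGMB did not share its pattern at this threshold. Of 7 measured genes for BMPs, their receptors and neogenin, 0 were 1.5-fold higher and 1 was lower in control Lgr5-detected cells, and of 6 in the treated library 0 were either. The lower one was Bmp2, a BMP ligand, at 12.5 CPM in Lgr5-detected and 25.05 CPM in other control cells (ratio 0.497). Bmp7, another ligand, was at 58.2 and 40.5 CPM (ratio 1.44). The list's median log2 ratio was -0.02 in the control and 0.08 in the treated library.

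Slc12a2 encodes NKCC1, the basolateral sodium, potassium and chloride cotransporter that crypt cells use for fluid secretion. It was at 219 CPM in Lgr5-detected and 154 CPM in other control cells, and at 107 and 81.2 CPM in the treated library. The ratios of 1.42 (1.37 to 1.48) and 1.31 (1.19 to 1.45) were above 1 in both libraries and under 1.5. The shares of cells with a UMI were 35.0% and 33.7% in the control, with overlapping intervals, and 38.1% and 30.2% in the treated library, and over all cells before thinning 70.7% and 73.0%. In the control, 14.6% of all Slc12a2 UMIs came from 20 cells, and without those cells, left out after seeing the data, the ratio was 1.29.

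Prom1 encodes prominin 1, a pentaspan protein of membrane protrusions used as a stem and tumour cell marker (chr5:43993620-44102032), whose gene overlaps the model Gm42716 on the same strand. It was at 160 CPM in Lgr5-detected and 123 CPM in other control cells (ratio 1.30, 1.24 to 1.36). Among treated cells, it was at 157 and 180 CPM (ratio 0.873, 0.807 to 0.944). The intervals lie on opposite sides of 1. A Prom1 UMI was present in 51.2% of Lgr5-detected and 41.0% of other control cells, and in 50.3% and 56.8% in the treated library, and before thinning in 85.4% and 93.0% of all cells of the libraries.

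EPHB2 and EPHB3 are the receptors of ephrin-B ligands that keep cells in place along the crypt axis. Ephb3 (chr16:21204755-21223305) was at 38.3 CPM in Lgr5-detected and 29.6 CPM in other control cells (ratio 1.29, 1.18 to 1.42), and at 25.5 and 22.0 CPM in the treated library (ratio 1.16, 0.946 to 1.41). Ephb2 (chr4:136647539-136835988) was at 40.0 and 32.6 CPM in the control (ratio 1.23, 1.12 to 1.34) and at 55.3 and 48.9 CPM in the treated library (ratio 1.13, 0.988 to 1.29). Both receptors leaned towards Lgr5-detected cells in the control, and both treated intervals included 1. Of 7 measured ephrins and other Eph receptors, 3 were 1.5-fold lower in control Lgr5-detected cells and 0 in the treated library, with 0 higher in either and median log2 ratios of -0.27 and -0.03. These were the ligand Efnb2 (18.3 against 27.9 CPM, ratio 0.655) and the receptors Epha2 (15.9 against 29.2 CPM, ratio 0.544) and Epha4 (15.1 against 31.6 CPM, ratio 0.479).

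Ascl2 encodes the basic helix-loop-helix factor that sets crypt stem cell identity together with Wnt signals (chr7:142966829-142969264). It was at 30.0 CPM in Lgr5-detected and 27.02 CPM in other control cells, and at 42.6 and 36.3 CPM in the treated library. The ratios of 1.11 (1.00 to 1.23) and 1.17 (1.00 to 1.36) lay close to 1, with lower bounds at it. By cells there was no difference beyond counting error: 9.80% of Lgr5-detected and 9.78% of other control cells had an Ascl2 UMI, and 14.3% and 15.3% in the treated library. Before thinning 39.0% of all control and 45.4% of all treated cells had one.

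Myc encodes the growth-promoting transcription factor that is a classic Wnt target in colorectal tumours (chr15:61985391-61990374). It was at 21.9 CPM in Lgr5-detected and 31.4 CPM in other control cells (ratio 0.696, 0.621 to 0.779). With RSPO1-Fc, it was at 37.5 and 33.7 CPM (ratio 1.11, 0.943 to 1.31). Myc was thus lower in the Lgr5-detected cells of the control, short of the 1.5-fold threshold, and without a difference beyond counting error in the other library. Of 15 Myc partners and targets, 0 passed the threshold in the control and 1 was lower in the treated library, with medians of -0.13 and -0.01 on the log2 scale. That gene was Mxd1, a MAX-binding antagonist of MYC, at 29.4 CPM in Lgr5-detected and 61.5 CPM in other cells (ratio 0.478).

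Cd44 encodes the hyaluronan receptor used to isolate crypt base and tumour cells (chr2:102811141-102901665). It was at 61.1 CPM in Lgr5-detected and 84.5 CPM in other control cells, and at 60.4 and 87.7 CPM in the treated library. The ratios of 0.723 (0.675 to 0.773) and 0.689 (0.606 to 0.780) were below 1 in both libraries. Cd44 UMIs were found in 20.6% of Lgr5-detected and 28.7% of other control cells, and in 25.9% and 30.7% in the treated library, where the intervals overlap; before thinning the shares over all cells were 65.2% and 71.9%. Macrophage-marker cells held Cd44 at 233 CPM and in 62.0% of cells, so they are no background for it. Non-epithelial markers summed to 254 CPM in Lgr5-detected and 235 CPM in other control cells over all states, and to 90.8 and 269 CPM in S and 50.2 and 273 CPM in G2M cells. Their part in the Cd44 difference was not tested.

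Olfm4 encodes olfactomedin 4, a secreted glycoprotein of small intestinal stem cells (chr14:79984081-80023139), and its gene overlaps the model Gm6999 on the same strand. It had 5 UMIs in 4 of 1881 control cells and 0 in the treated cells. After thinning to 5000 UMIs, 0 cells had a UMI; at that depth this count allows a share of cells with an Olfm4 UMI of up to 0.159% in the control and 0.109% in the treated library, and it does not limit the cells that express the gene. Whether it follows Lgr5 could not be measured with so few UMIs, and the cause of the low count was not tested.

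The level of Lgr5 in a cell gave a finer view than detection alone. Control cells were grouped by 0, 1, 2 or at least 3 Lgr5 UMIs per 5000, with 1381, 308, 112 and 80 cells. Smoc2 was at 147, 244, 259 and 372 CPM in these groups. Rgmb was at 11.5, 21.6, 36.5 and 45.6 CPM. The values of both went up from group to group, as did those of Slc12a2, Prom1, Ephb3 and Ephb2, although some neighbouring intervals overlapped (Smoc2 at 1 Lgr5 UMI, 234 to 253 CPM, and at 2, 243 to 275 CPM). Slc12a2 stayed near its starting level at 1 Lgr5 UMI and was well above it further on, at 154, 167, 249 and 364 CPM. Ascl2 was highest in the last group, at 27.02, 25.2, 32.7 and 43.6 CPM. Myc (31.4, 24.0, 16.2 and 22.0 CPM) and Cd44 (84.5, 58.5, 62.5 and 68.2 CPM) were lower in every group with Lgr5 UMIs than in the group without.

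In treated cells, the groups with 0, 1 and at least 2 Lgr5 UMIs held 2562, 176 and 13 cells. Smoc2 was at 45.8, 97.8 and 218 CPM. Slc12a2 was at 81.2, 103 and 155 CPM. Cd44 went the other way, at 87.7, 61.2 and 48.1 CPM. Prom1 was at 180, 158 and 140 CPM. The intervals of the last group, with 13 cells, are wide: for Smoc2 it runs from 166 to 281 CPM, above that of the group before, and for Cd44 from 25.6 to 82.2 CPM, overlapping it.

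**Figure D2:**
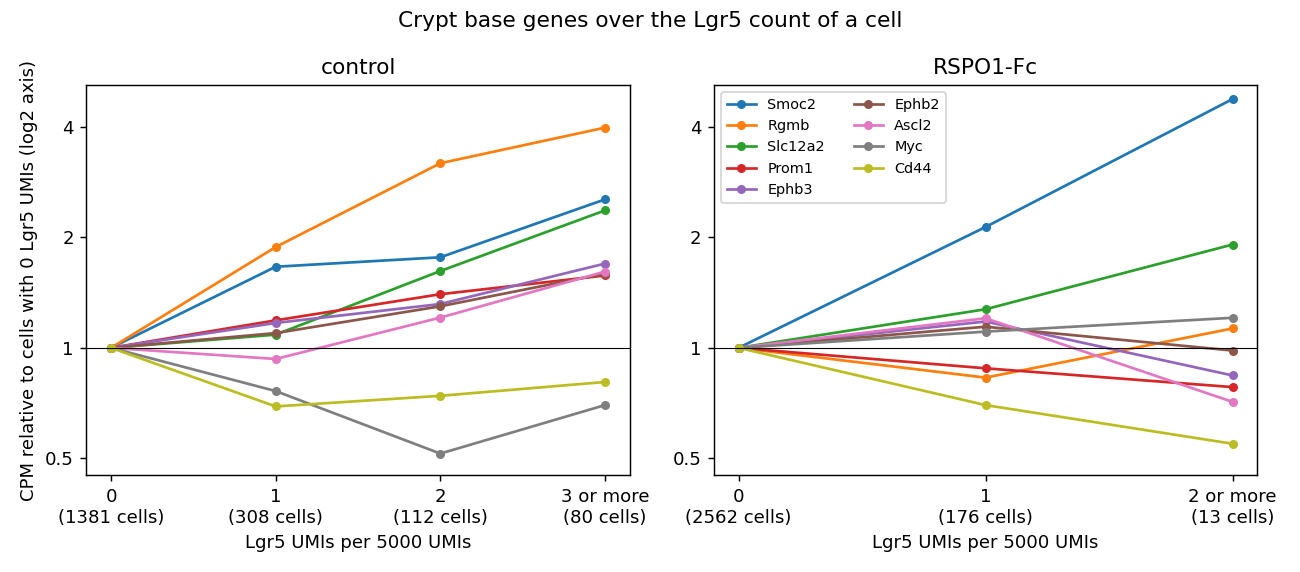
Level of each member relative to cells with 0 Lgr5 UMIs (log2 axis) against the Lgr5 UMIs of a cell after thinning to 5000 UMIs, with the number of cells under each group. In the control Rgmb, Smoc2 and Slc12a2 reach 45.6, 372 and 364 CPM in the 80 cells with at least 3 Lgr5 UMIs, while Myc and Cd44 stay below their starting level; in the treated library Smoc2 reaches 218 CPM.

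Cells were then split by cell cycle state, from scores over S phase and G2M phase gene lists within each library. These states are ranges of a score and not cell types: 351 control cells (18.7%) and 617 treated cells (22.4%) lay within 0.05 of a threshold between states. The control held 1427 G1, 243 S and 211 G2M cells, and the treated library 999, 1006 and 746. Median depth went from 24837 UMIs in G1 to 40188 in S and 46273 in G2M cells of the control, and from 18487 to 24559.5 and 30068 in the treated library; the part of depth in the differences between states was not tested. Lgr5 was detected in 27.3% of G1, 28.8% of S and 19.4% of G2M control cells, with overlapping intervals, and in 6.91%, 7.16% and 6.43% of the treated cells. Before thinning these shares were 54.9%, 53.9% and 49.3%, and 18.1%, 23.6% and 24.9%.

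Smoc2 was higher in Lgr5-detected cells in all 3 states of both libraries. Its ratios in G1, S and G2M cells were 1.66 (1.59 to 1.74), 2.36 (2.15 to 2.60) and 2.22 (1.99 to 2.48) in the control. For the treated cells, they were 2.38 (2.01 to 2.82), 2.16 (1.82 to 2.54) and 2.43 (2.00 to 2.93). It was the member that passed 1.5-fold in all 6 comparisons. Rgmb passed it in all 3 control states, at 2.31 (1.95 to 2.74), 2.98 (2.36 to 3.77) and 2.67 (2.00 to 3.55). In the treated states its ratios of 1.21, 0.535 and 0.915 rest on 10, 6 and 8 UMIs in the Lgr5-detected cells and all 3 intervals include 1. Non-epithelial markers summed to 337 and 217 CPM in Lgr5-detected and other G1 cells of the control, and to 90.8 and 269 CPM in S and 50.2 and 273 CPM in G2M cells. Their part in the Rgmb ratios was not tested.

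The ratios of the other members were taken by state too, and differences between states were not tested. In control G1 cells 3 of 9 members passed 1.5-fold upwards (2.56% of all genes did), with Slc12a2 at 1.5, on the threshold, beside Smoc2 and Rgmb. In control S cells 5 of 9 did (7.21% of all genes), with Slc12a2 at 1.71, Prom1 at 1.74 and Ephb3 at 1.51. In control G2M cells 3 of 9 did (5.39% of all genes), with Ephb3 at 1.502, and Slc12a2 was at 1.03 (0.938 to 1.13). Cd44, at 0.615, and Myc, at 0.569, were the 2 members 1.5-fold lower in Lgr5-detected G2M cells of the control (5.51% of all genes were), while 0 were lower in G1 or S cells (3.11% and 5.18%). The non-epithelial markers were lower in the same Lgr5-detected G2M cells, at 50.2 against 273 CPM, and macrophage-marker cells held Cd44 at 233 CPM; their part in the Cd44 ratio was not tested. Ascl2 stayed between 1.01 and 1.38 in the control states and between 1.14 and 1.21 in the treated states.

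In treated G1 cells, 69 of them Lgr5-detected, Smoc2 was the 1 member 1.5-fold higher, where 10.9% of all genes were. Cd44, at 61.1 against 129 CPM (ratio 0.473, 0.368 to 0.599), and Prom1, at 152 against 245 CPM (ratio 0.622, 0.533 to 0.723), were the 2 lower members, where 10.3% of all genes were lower. In S cells Cd44 was at 0.842 (0.683 to 1.03) and Prom1 at 0.974 (0.860 to 1.0997), and in G2M cells at 0.852 and 1.11. The difference of Cd44 and Prom1 with Lgr5 in this library was thus found in G1 cells and not beyond counting error in the other states; the difference between states was not tested. Slc12a2 passed upwards in S cells at 1.56 (1.35 to 1.80; 3.57% of all genes higher, 5.64% lower), together with Smoc2. Ephb3 passed in G2M cells at 1.58 (1.13 to 2.16; 4.92% higher, 6.79% lower), on 44 UMIs in the Lgr5-detected cells.

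**Figure D3:**
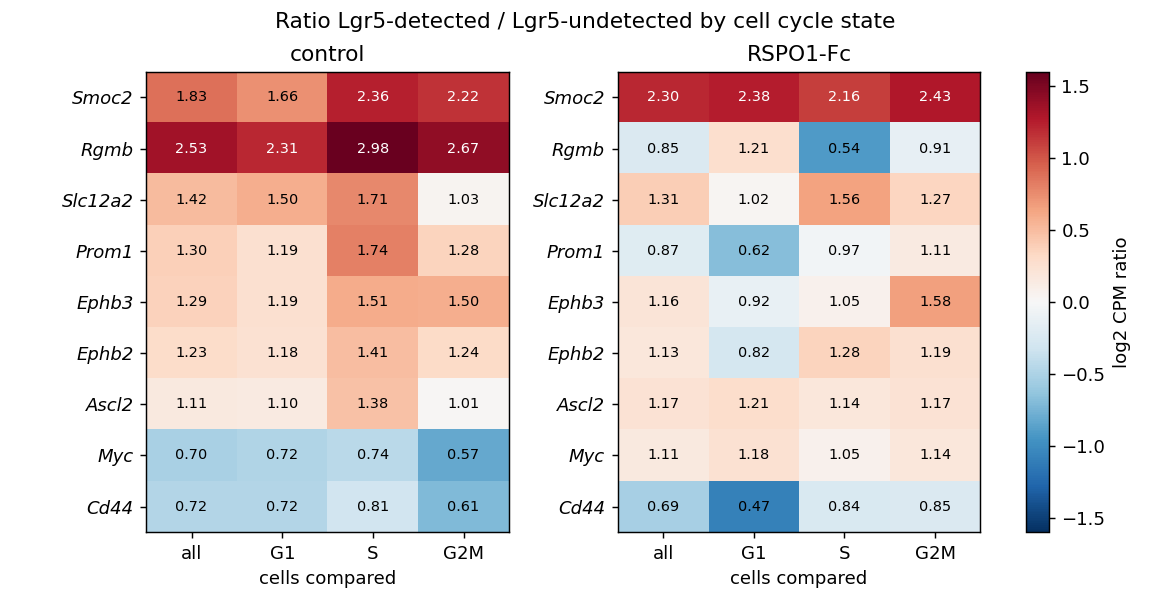
CPM ratio of each member between Lgr5-detected and Lgr5-undetected cells, over all cells and within G1, S and G2M cells, for the control (left) and RSPO1-Fc treated (right) library; colour is the log2 ratio and the numbers are the ratios. The Smoc2 row is above 1.5 throughout, the Rgmb row in the control, and Cd44 is lowest in treated G1 cells at 0.473.

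The members also differed in level between the states themselves. Ascl2 was the member that passed 1.5-fold upwards in S and in G2M over G1 cells of both libraries. It was at 19.1 CPM in G1, 42.2 CPM in S and 48.0 CPM in G2M cells of the control, and at 20.1, 40.5 and 46.4 CPM in the treated library. The ratios over G1 were 2.21 (1.97 to 2.48) for S and 2.52 (2.26 to 2.81) for G2M cells in the control, and 2.01 (1.79 to 2.26) and 2.30 (2.05 to 2.59) in the treated library. Over G1, 3 of 9 members were 1.5-fold higher and 0 lower in S cells of the control (11.3% and 14.3% of all genes), and 1 higher and 1 lower in the treated library (7.46% and 12.4%). For G2M cells these numbers were 2 and 2 in the control (12.5% and 19.7%) and 1 and 3 in the treated library (7.94% and 15.1%). When the upper tertile of control cells by G2M phase UMIs was set against the lower tertile in place of these states, the 2 lower calls, Smoc2 at 0.869 and Prom1 at 0.827, were lost, and Rgmb passed upwards at 1.87.

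Slc12a2 was at 117 CPM in G1, 312 CPM in S and 241 CPM in G2M cells of the control, ratios of 2.66 (2.54 to 2.77) and 2.06 (1.96 to 2.15). Among treated cells, it was level, at 86.8, 81.8 and 80.5 CPM. Rgmb in the control was at 12.8, 26.7 and 18.5 CPM, and in the treated library at 7.22, 6.22 and 6.17 CPM with overlapping intervals. Both genes therefore had their highest level in S cells of the control and lay between 0.856 and 0.942 times their G1 level in the other. Smoc2 was highest in G1 cells of both libraries, at 199, 154 and 124 CPM in the control and 62.8, 47.5 and 40.3 CPM in the treated library. The treated order depended on how cells were chosen. In cells of at least 15000 UMIs the treated ratios over G1 were 0.9004 for S and 0.768 for G2M cells, against 0.757 and 0.642 in all. In the treated cells highest on S phase genes Smoc2 was at 1.06 (0.9505 to 1.17) times its level in the rest, and at 1.0995 (0.994 to 1.21) in those highest on G2M phase genes. Prom1 was highest in G1 cells too, at 144, 128 and 93.8 CPM and at 239, 163 and 143 CPM.

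Cd44 was at 75.7, 84.7 and 82.1 CPM in the G1, S and G2M cells of the control, but at 125, 68.5 and 72.7 CPM in the treated library, ratios over G1 of 0.547 (0.515 to 0.581) and 0.580 (0.545 to 0.617). Its high level in that library was thus in G1 cells. Myc over G1 was 1.42 in S and 1.20 in G2M cells of the control and 1.21 and 1.04 in the treated library. Its partner and target list was 1.5-fold higher in S cells for 10 of 15 genes and lower for 2 in the control (11.3% and 14.3% of all genes). In the treated library these numbers were 8 and 2 (7.46% and 12.4% of all genes). The median log2 ratios of the list were 0.85 and 0.59, beside -0.08 and -0.09 for all genes. The Eph receptors were under the 1.5-fold threshold: Ephb2 was at 1.41 and 1.33 in the control and 1.03 and 1.14 in the treated library, and Ephb3 at 1.07 and 0.979, and 0.748 and 0.759.

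**Figure D4:**
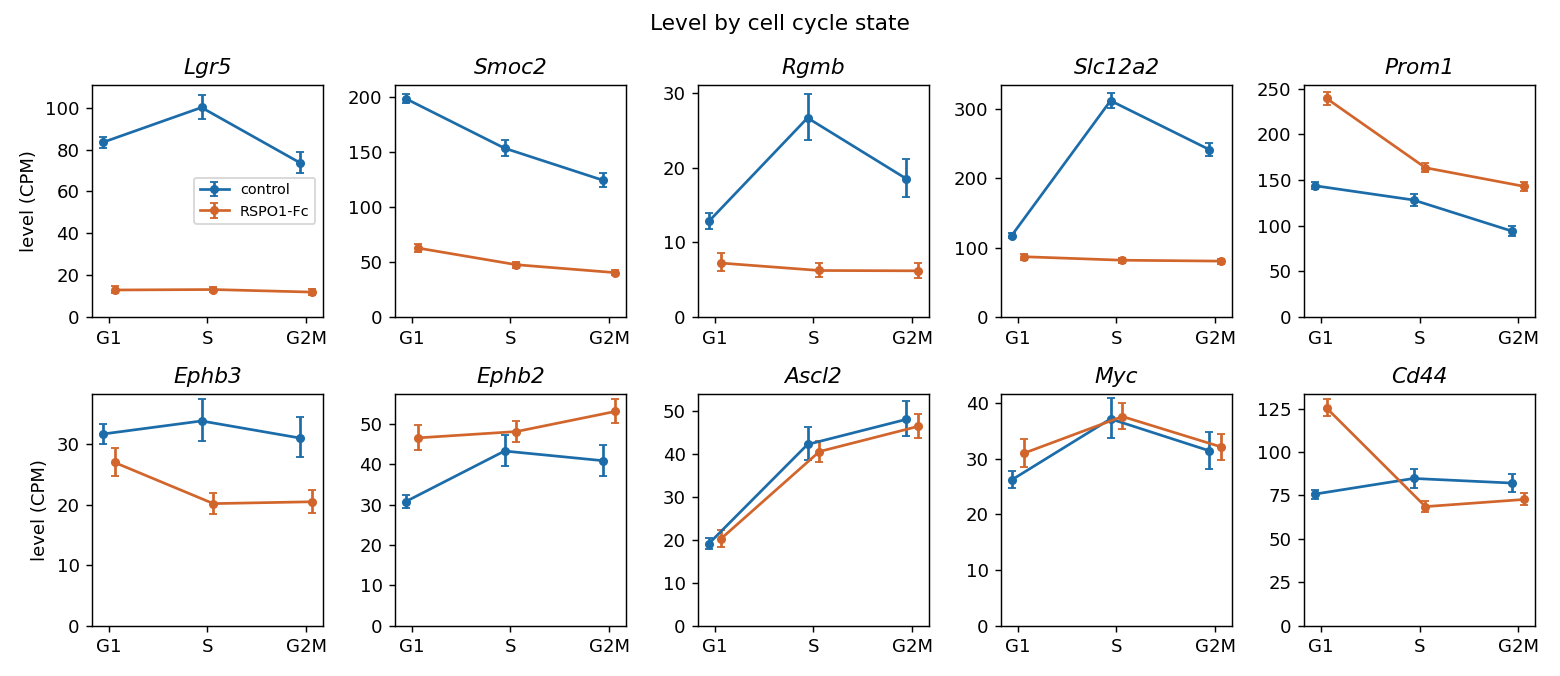
Level in CPM of Lgr5 and the 9 measured members in G1, S and G2M cells of the control (blue) and RSPO1-Fc treated (orange) library, with 95% counting intervals; lines join the states of a library. Ascl2 goes from 19.1 to 48.0 CPM and from 20.1 to 46.4 CPM, Slc12a2 spans 117 to 312 CPM in the control and 80.5 to 86.8 CPM with RSPO1-Fc, and Cd44 is at 125 CPM in treated G1 cells.

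Lists of other genes set the members in context. Of 18 measured Wnt target genes, 0 were 1.5-fold higher and 2 lower with Lgr5 in the control (2.63% and 2.86% of all genes). Of 17 in the treated library 6 were higher and 1 lower (2.86% and 3.34% of all genes). The median log2 ratios of the list were 0.09 and 0.29. The secreted Wnt inhibitor gene Wif1 was at 34.0 CPM in Lgr5-detected and 12.2 CPM in other treated cells (ratio 2.80) and at 944 and 921 CPM in the control (ratio 1.03). Notum, which inactivates Wnt proteins, was at 92.1 and 44.8 CPM in the treated library (ratio 2.06). Nkd1, a feedback inhibitor inside the cell, was at 177 and 88.5 CPM (ratio 2.00), and the factor Prox1 at 93.3 and 48.1 CPM (ratio 1.94). The 20 highest treated cells held 40.8% of the Wif1 UMIs, 19.8% of Notum, 12.1% of Nkd1 and 10.5% of Prox1. After thinning, a Wif1 UMI was found in 8.99% (5.33 to 14.0) of Lgr5-detected and 4.14% (3.40 to 4.98) of other treated cells. In that library Smoc2 passed the threshold as these Wnt targets did, whereas Ascl2, Ephb2 and Myc did not. The count of 6 depends on how Lgr5-detected cells were defined, and was 2 or 3 under other definitions.

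Of other stem cell genes, 3 of 13 measured were higher with Lgr5 in the control and 2 of 12 in the treated library, with 0 lower in either and medians of 0.14 and 0.24. Lrig1, an inhibitor of ErbB receptors, passed in both, at 17.1 against 9.26 CPM (ratio 1.84) and 37.0 against 22.2 CPM (ratio 1.67). Like Smoc2, it was higher with Lgr5 in each library. The water channel gene Aqp4 was at 6.51 against 1.605 CPM in the control, and Gkn3 at 5.09 against 2.96 CPM in the treated library. Few cells carried both: 20 cells held 59.3% of the control Aqp4 UMIs and 47.5% of the treated Gkn3 UMIs, of which 22 lay in Lgr5-detected cells. In the control Gkn3 was at a ratio of 0.921 (0.820 to 1.03).

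Cells were also ranked by UMIs of marker lists after thinning, and the highest-scoring 10%, ties included, was set against the rest. At least 1 UMI was required, so some groups were smaller than 10%. They held 81 control cells for enteroendocrine and 110 treated cells for tuft cell markers. Ties made other groups larger than 10%. In the treated library these included 571 of 2751 cells for enteroendocrine markers, where 1 UMI was enough. With 2 UMIs enough, they included 517 cells for enterocyte and 459 for goblet cell markers. The clearest contrast lay with the list of fetal and regenerative epithelium (Clu, Ly6a, Anxa1 and others). Cd44 was at 253 CPM in 283 high-scoring treated cells and 71.1 CPM in the other 2468 (ratio 3.56, 3.36 to 3.78), and at 163 and 68.6 CPM in the control (ratio 2.38, 2.23 to 2.55; 203 and 1678 cells). Prom1 was at 333 and 164 CPM (ratio 2.03) and at 205 and 125 CPM (ratio 1.64). Macrophages hold Cd44 too, and the part of non-epithelial RNA in this contrast was not tested. Non-epithelial markers summed to 240 CPM over all epithelial cells of the control and to 24.4 CPM over those of the treated library. In the high-scoring and other cells Lgr5 itself was at 4.35 and 13.4 CPM in the treated library (ratio 0.325). In the control it was at 78.1 and 85.4 CPM (ratio 0.915, 0.835 to 1.00).

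Ascl2 had the lowest ratio of the members on that list in the treated library, at 9.92 CPM in high-scoring and 39.1 CPM in other cells (ratio 0.254, 0.192 to 0.330). Smoc2 followed, at 19.0 and 52.2 CPM (ratio 0.363, 0.297 to 0.440), then Myc, at 22.8 and 34.9 CPM (ratio 0.653). In the control the same genes were at 0.736 for Ascl2, 0.826 for Smoc2 and 1.14 for Myc. Rgmb and Ephb3 took different sides, at 0.629 and 0.720 in the control and 1.57 and 1.66 in the treated library. Ephb2 was above 1 in both, at 1.27 and 1.04, and so was Slc12a2, at 1.37 (1.30 to 1.45) and 1.34 (1.23 to 1.45). In both libraries Cd44, Prom1 and Slc12a2 were thus above 1 on this list beyond counting error, and Smoc2 and Ascl2 below it.

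**Figure D5:**
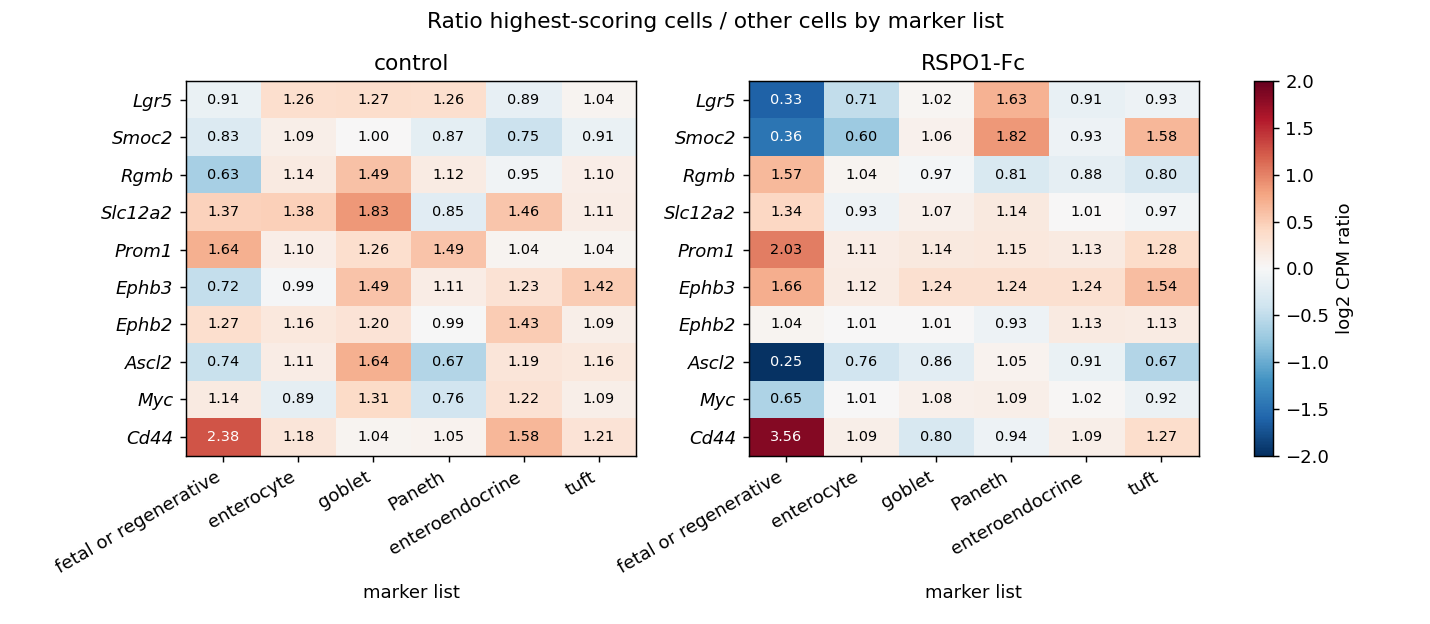
CPM ratio of Lgr5 and the 9 measured members between the cells that score highest on a marker list (columns) and all other cells of the library, control (left) and RSPO1-Fc treated (right); colour is the log2 ratio and the numbers are the ratios. The first column holds the widest spread, from 0.254 for Ascl2 to 3.56 for Cd44 in the treated library.

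Lists of differentiated cells gave these values for the members. In the control, Slc12a2 was at 1.83 and Ascl2 at 1.64 in the 231 cells highest on goblet cell markers. In the treated library, Smoc2 was at 1.82 and Lgr5 at 1.63 in the 398 cells highest on Paneth cell markers. In the 258 such cells of the control, Smoc2 was at 0.870 and Lgr5 at 1.26 (1.17 to 1.36).

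The genes most like Lgr5 over cells were sought by Pearson correlation of thinned log counts, among genes of at least 20 CPM; all points of a library share its depth and free RNA, and the counts are sparse. In the control (1881 cells, 6154 genes) genes among the highest were Wfdc18 (r = 0.37), Cd177 (0.34), Tstd1 (0.22) and Tm4sf20 (0.21). Smoc2 ranked 14 with r = 0.18, Slc12a2 121, Prom1 156 and Ephb3 277. Ascl2 ranked 3243, Ephb2 3808, Myc 5636 and Cd44 6068. Over treated cells (2751 cells, 5383 genes) the highest were Ifitm1 (0.15), Ifitm3 (0.12), Tpi1 (0.12), Ldha (0.11) and Aldoa (0.11). Smoc2 ranked 7 with r = 0.10, Slc12a2 113 and Ephb2 606, followed by Myc at 1661, Ascl2 at 3345, Ephb3 at 4481, Prom1 at 4935 and Cd44 at 5114. The treated r of Ascl2, Ephb3, Prom1 and Cd44 was between -0.040 and -0.0091. These correlations are weak, and the order of the members is given as a description.

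The members had neighbours of their own. Slc12a2 was most like Lgals4 in the control (r = 0.55), followed by Ceacam1 (0.43). Smoc2 was most like Ceacam10 in the control (0.36) and Ifitm1 in the treated library (0.32). Cd44 was most like Anxa1 in the control (0.29) and Clu in the treated library (0.31), and Prom1 was also most like Clu there (0.27). Between members, r was at most 0.18 in the control (Lgr5 with Smoc2 and Cd44 with Slc12a2) and 0.15 in the treated library (Cd44 with Prom1), in counts too sparse to read more from them.

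Between the libraries, Lgr5, Smoc2, Rgmb and Slc12a2 were lower with RSPO1-Fc, and 5 of the other measured members were less than 2-fold higher. Lgr5 was at 84.7 CPM without and 12.6 CPM with RSPO1-Fc, 6.70-fold lower (6.24 to 7.20). Smoc2 was at 179 and 49.5 CPM, 3.61-fold lower (3.48 to 3.75). Rgmb was at 16.1 and 6.49 CPM, 2.48-fold lower (2.22 to 2.77). Slc12a2 was at 171 and 82.8 CPM, 2.07-fold lower (2.00 to 2.13). These 3 members of 9 were at least 2-fold lower and 0 were 2-fold higher, where 21.1% and 7.76% of all genes were.

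The rest differed by less than 2-fold. Ephb3 was at 31.9 CPM without and 22.2 CPM with RSPO1-Fc (1.44-fold lower). Ephb2 went from 34.5 to 49.3 CPM (1.43-fold higher), so the 2 Eph receptors stood on opposite sides. Prom1 was at 133 and 178 CPM (1.34-fold higher) and Ascl2 at 27.8 and 36.7 CPM (1.32-fold higher). Myc was at 28.9 and 33.9 CPM and Cd44 at 78.3 and 86.0 CPM. The median log2 ratio of all genes was -0.22 by CPM and 0.12 after TMM scaling. Under TMM scaling 1 member, Smoc2, remained past 2-fold, with Rgmb at 0.511 and Slc12a2 at 0.613 of the control, and every member kept its direction. RSPO1-Fc, the sex and origin of the organoids and the library cannot be told apart in this comparison.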

How the data were processed

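Single-cell RNA was measured by the submitters in 1 control and 1 RSPO1-Fc organoid library. The deposited matrices hold raw UMI counts per gene and barcode; per the labels' protocols reads were aligned to mm10, with Cell Ranger 2.1.1 and Seurat 3.1.1 among the tools per the submitters' processing notes, while the control file header gives software version 3.1.0 and the barcode lists of the libraries differ in length (6794880 and 737280). Versions of chemistry or software may therefore differ between the libraries, and 3′ counting measures no length. The rule for cells, thinning to 5000 UMIs (seed 1), sums in CPM on 27514 shared genes, and state scores (scanpy 1.11.5; G1 where both scores were at or below 0) are as given above. Intervals are exact Poisson or Clopper-Pearson, 95%, for counting error only (scipy 1.17.1). A gene was called at 1.5-fold within and 2-fold between libraries, with at least 5 CPM in either group; TMM factors came from edgeR 4.0.16, with no count test. Doublets were kept: 37 control and 61 RSPO1-Fc cells were marked by a caller and left out in an alternative. Procedures were tested on simulated data. Named genes were the members, Lgr5, up to 4 measured genes of each list with the largest ratio in either library, the 5 genes most correlated with Lgr5 and the 2 most correlated with each member; 1 gene that this rule names is not reported here. Members and lists were chosen with earlier results of these data known. Gene positions come from GENCODE on GRCm38.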

Additional observations from a re-analysis of the deposited data

Results flagged for a closer look

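No member met the criteria for a closer look. Of the marker lists 5 genes did, because their summed UMIs took opposite sides in the libraries between Lgr5-detected and other cells. The difference between the libraries was not tested, since each condition is 1 library. Spink4, a goblet cell secretory gene, was at a ratio of 5.44 without and 0.401 with RSPO1-Fc. The Paneth cell defensin genes, near-identical copies whose counts are uncertain, were at 42.4 and 0.301 for Defa30, 10.4 and 0.278 for Defa24, and 4.396 and 0.322 for Defa17. Pyy, a hormone of enteroendocrine cells, was at 1.88 and 0.283. Few cells carry these values: the 20 highest cells of the control held 97.6% of Spink4, 98.9% of Defa30, 99.03% of Defa24, 99.3% of Defa17 and 96.2% of Pyy UMIs. In the RSPO1-Fc library they held 67.7%, 72.0%, 72.8%, 70.4% and 48.6%. By share of cells with a UMI after thinning, the RSPO1-Fc intervals of Lgr5-detected and other cells overlapped for all 5 genes. Defa24 was found in 42.9% and 35.8% of these cells, Defa30 in 12.7% and 9.45%, and Defa17 in 5.29% and 4.06%. For Pyy the shares were 10.1% and 10.2%, and for Spink4 2.65% and 3.04%. For Smoc2 and Rgmb the 20 highest control cells held 9.73% and 15.4%, and without them the ratios were 1.80 and 2.18.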

How the results depend on the processing

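No paired analysis was possible because each condition holds 1 library, and for the same reason no replicate could be left out. Of 466 gene values under the alternatives, 404 moved by less than their counting interval and 62 moved more; 0 of those past their fold threshold changed direction. Wnt target genes higher with Lgr5 numbered 0 in the control, and 1 with at least 1 or at least 2 unthinned Lgr5 UMIs as the definition. In the RSPO1-Fc library they numbered 6, but 2 after thinning to 3000 UMIs, 3 with at least 1 and 2 with at least 2 unthinned Lgr5 UMIs; the cause was not tested. Members 2-fold different between libraries numbered 3 by CPM and 1 with TMM scaling. Smoc2 with Lgr5 ranged from 1.67 to 1.91 in the control and from 1.66 to 2.40 in the RSPO1-Fc library, and Rgmb from 2.18 to 2.74 and, on both sides of 1, from 0.53 to 1.17. Leaving out cells with at least 3 non-epithelial marker UMIs, or the 20 cells highest in a gene, was chosen after seeing the data. Low counts limit Olfm4 and, in the RSPO1-Fc states, Rgmb, and the cause of the low counts was not tested.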
